A study of Mus musculus with 30 samples.

Results

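The difference between C57BL/6 and DBA/2 mice in the response of liver genes across the full range of dietary iron was measured as an interaction contrast: the change from an iron-deficient to an iron-enriched diet in DBA/2 livers minus the same change in C57BL/6 livers. The contrast uses 20 of the 30 arrays of the study, chosen by the strain and diet in the labels, with 5 mice in each of 4 groups. C57BL/6 and DBA/2 are inbred mouse strains. Iron stood at 8.3 g per kg in the enriched diet and below 3 mg per kg in the deficient one, and the 10 arrays of mice on a balanced diet were not used. Each array carried liver RNA of 1 mouse with its own animal code, so the replicates are separate animals, and the numbers 1 to 5 used below only name a mouse. No source used here gives the sex or age of the mice, how long they were fed or the hour of sampling. Levels are log2 of the quantile-normalized array signal, changes are log2 differences (enriched minus deficient), and a strain difference below 0 means that the change in DBA/2 was lower. In bulk liver, fewer cells of a type and less RNA per cell cannot be told apart.

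Liver senses iron stores through bone morphogenetic protein (BMP) signalling. BMP6, made mostly by sinusoidal endothelial cells, acts on receptors of hepatocytes, whose SMAD proteins then switch on Hamp, the gene of the hormone hepcidin. Hepcidin blocks the export of iron into blood. The same SMAD proteins switch on the inhibitors of differentiation Id1 to Id4, the transcription factor Atoh8 and Smad7, an inhibitory SMAD that dampens the pathway. Bmp6, Id1, Smad7 and Atoh8 stand in the title of the study, which chose them on these samples, so their changes with diet are not independent evidence of direction.

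The promoters of 4 BMP target genes are shown because Hamp and Hamp2 rose in both strains, while the changes of Id4 and Id3 differed between the strains. The sequences are the 250 bases before the RefSeq start site on assembly GRCm38.p6, read 5′ to 3′ on the gene's strand. Capitals mark GGCGCC, the core of BMP-responsive elements, a motif that is its own reverse complement and so reads the same on both strands. Id4 lies on the plus strand at chr13:48260866-48261115, Id3 on the plus strand at chr4:136143572-136143821, Hamp on the minus strand at chr7:30944030-30944279 and Hamp2 on the minus strand at chr7:30924182-30924431.
Id4: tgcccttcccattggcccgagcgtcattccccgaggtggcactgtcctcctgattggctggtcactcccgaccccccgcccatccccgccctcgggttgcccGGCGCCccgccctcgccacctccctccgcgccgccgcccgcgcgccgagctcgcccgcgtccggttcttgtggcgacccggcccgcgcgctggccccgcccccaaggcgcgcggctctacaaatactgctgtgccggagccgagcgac
Id3: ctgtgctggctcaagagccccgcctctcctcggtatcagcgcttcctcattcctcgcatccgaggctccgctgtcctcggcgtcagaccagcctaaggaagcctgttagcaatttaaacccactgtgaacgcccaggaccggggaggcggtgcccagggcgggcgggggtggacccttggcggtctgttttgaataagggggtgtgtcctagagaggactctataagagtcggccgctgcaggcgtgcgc
Hamp: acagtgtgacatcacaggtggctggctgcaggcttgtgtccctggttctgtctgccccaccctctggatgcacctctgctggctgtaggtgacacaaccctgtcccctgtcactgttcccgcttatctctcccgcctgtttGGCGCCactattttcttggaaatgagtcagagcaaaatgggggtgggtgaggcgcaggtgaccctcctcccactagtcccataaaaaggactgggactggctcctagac
Hamp2: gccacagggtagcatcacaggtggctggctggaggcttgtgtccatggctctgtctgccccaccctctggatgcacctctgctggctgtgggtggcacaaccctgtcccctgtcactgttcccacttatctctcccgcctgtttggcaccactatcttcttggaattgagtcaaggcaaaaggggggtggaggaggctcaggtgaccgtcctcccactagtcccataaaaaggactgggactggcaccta
GGCGCC occurred 1 time in the Id4 promoter and 1 time in the Hamp promoter, with its first base 148 and 109 bases before the start. It was found 0 times in the windows of Id3, Hamp2, Bmp6 and Atoh8. Of all 32851 promoters of this length in the table, 9.59% held the motif, and of the 15117 that belong to tested genes 14.7% did. Among the 59 promoters of genes with a strain difference 6 held it, 10.2%. A match describes the letters of the window and is not evidence of binding.

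The share of probes well above background ran from 64.2% to 76.7% over the 20 arrays. Arrays of a group correlated at 0.982 to 0.995 with each other. The strains were parted by the first principal component (45.4% of the variance) and the diets by the third (8.2%). The arrays came from 9 slides scanned on 3 days. Day 1 held only DBA/2 arrays (1 deficient and 2 enriched). Days 2 and 3 held all 4 groups, with as few as 1 array in a group on day 2. Day 3 held 4 enriched C57BL/6 arrays and 2 of each other group. The second component (15.5%), larger than that of diet, parted the arrays of day 3, all positive, from those of days 1 and 2, all negative. Of 8 hepatocyte markers 7 were tested, and the log2 of their summed signal lay between 20.1 and 20.4 in all 4 groups, so the tissue matched its label. The precision is limited by the 5 arrays in each group.

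Of 20797 genes tested, 99 passed for a strain difference (0.476%, limma, Benjamini-Hochberg adjusted p under 0.05). The change in DBA/2 was the higher one in 50 genes (0.24%) and the lower one in 49 (0.236%). Without normalization between arrays 36 genes passed, of which 9 (25%) were higher against 50.5% here, and the median difference over all genes moved from -0.02 to -0.14. At an unadjusted p under 0.05, 2296 genes differed (11% of those tested). The change from deficient to enriched itself passed in 1250 genes of C57BL/6 livers (6.01%; 3.15% rose and 2.86% fell) and in 755 of DBA/2 livers (3.63%; 2.13% rose and 1.5% fell). Of the genes that passed in C57BL/6, 79.5% had the same sign in DBA/2, with a median change of 0.48 in C57BL/6 and 0.17 in DBA/2 in that direction. Of those that passed in DBA/2, 84.4% had the same sign in C57BL/6, with medians of 0.49 and 0.24. Over all tested genes 58.1% had the same sign in both strains. Genes picked because they passed in a strain tend to show the larger change there, so these medians do not compare the strength of the responses. The strains shared 246 genes that passed in each, 19.7% of the C57BL/6 list and 32.6% of the DBA/2 list, and 239 of these had the same sign.

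Among the 99 genes, the larger change lay in C57BL/6 for 67 and in DBA/2 for 32. In 56 genes the diet change passed in C57BL/6 alone, 28 of them rising and 28 falling there. In 26 it passed in DBA/2 alone, with 16 rises and 10 falls. In 9 genes it passed in both strains with the same sign, and all 9 rose in both and rose more in C57BL/6. In 7 it passed in both with opposite signs, and in 1, the noncoding Gas5, in neither. Whether or not they passed in each strain, the fitted changes had opposite signs in 76 of the 99 genes (76.8%). Genes chosen by the difference of the changes tend to have opposite signs, so this share is not separate evidence. The strain difference was at least 2-fold in 40 genes. The levels of the strains differed on both diets in 52 genes, on the enriched diet alone in 34 and on the deficient diet alone in 13. Over all tested genes 37.3% differed on the enriched and 30.3% on the deficient diet, each share counting genes that differed on both. The strain difference equals the strain gap on the enriched diet minus that on the deficient one. Genes chosen by it therefore tend to show a gap on at least 1 diet, so these counts are not separate evidence. In 93 of the 99 genes at least 3 of 5 arrays stood above background in every group.

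**Figure D1:**
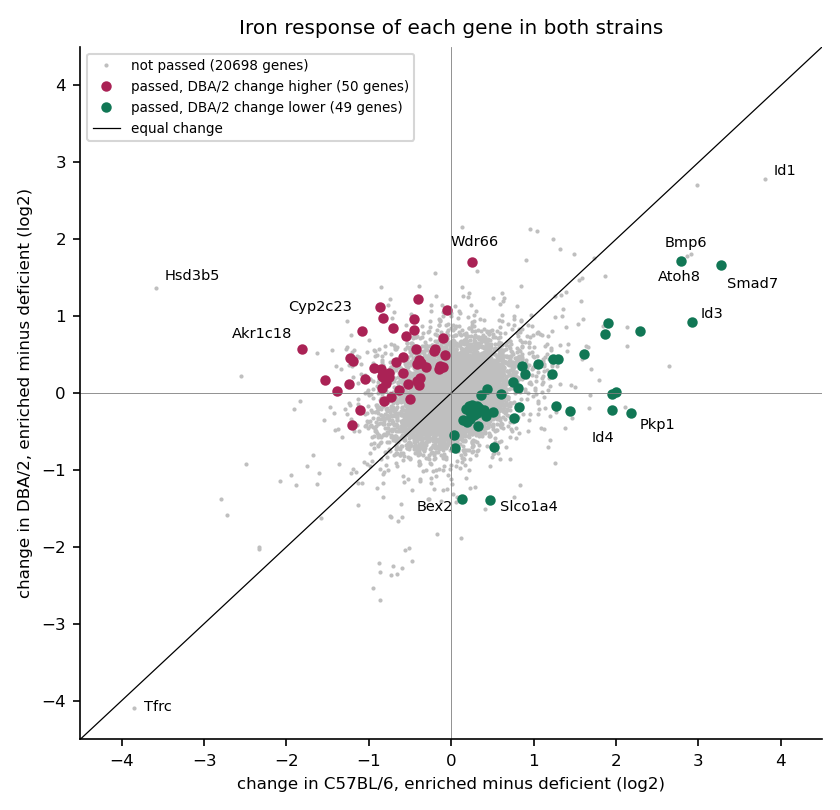
Change from the deficient to the enriched diet in C57BL/6 (x axis, log2) and in DBA/2 livers (y axis, log2), 1 point per tested gene. The 50 genes with the higher and the 49 with the lower change in DBA/2 lie on either side of the line of equal change, most of them near 0 in one strain. Hamp and Hamp2 lie beyond the axes, with changes from 8.78 to 12.33 in both strains.

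The ligand gene Bmp6 rose in both strains, 6.93-fold in C57BL/6 (log2 2.79, SE 0.0858, adjusted p = 2.91e-13) and 3.30-fold in DBA/2 (log2 1.72, SE 0.0858, adjusted p = 5.04e-10). Its level was 8.11, 8.25, 8.24, 8.38 and 8.32 in the deficient and 11.06, 11.02, 11.10, 10.90 and 11.19 in the enriched C57BL/6 mice. In DBA/2 it was 7.93, 8.22, 7.92, 8.09 and 8.19 on the deficient and 9.76, 9.97, 9.92, 9.76 and 9.56 on the enriched diet. The deficient groups overlapped, while every enriched C57BL/6 mouse lay above every enriched DBA/2 mouse. The strain difference was -1.07 (SE 0.121, adjusted p = 0.000533), -0.92 among the arrays of scan day 2 and -0.94 among those of day 3. The other Bmp6 probe gave -0.57 and did not pass (adjusted p = 0.259), with rises of 2.53 and 1.95.

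Smad7, the inhibitory SMAD, rose 9.66-fold in C57BL/6 (log2 3.27, SE 0.204) and 3.17-fold in DBA/2 (log2 1.67, SE 0.204). It read 9.00, 8.72, 9.14, 9.01 and 8.98 in deficient C57BL/6 mice and 9.20, 8.87, 9.02, 8.89 and 8.84 in deficient DBA/2 mice. On the enriched diet it read 11.86, 12.80, 12.20, 12.17 and 12.20 in C57BL/6 and 10.89, 10.05, 11.14, 11.02 and 10.05 in DBA/2. The strains started from overlapping levels and did not overlap on the enriched diet. The difference of -1.61 (SE 0.288) passed with an adjusted p of 0.0172, and was -1.48 and -1.89 within scan days 2 and 3.

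Id4, an inhibitor of basic helix-loop-helix transcription factors, rose 3.87-fold in C57BL/6 (log2 1.95, SE 0.178, adjusted p = 1.64e-06), while its change in DBA/2 was -0.22 (SE 0.178, adjusted p = 0.636). In C57BL/6 it read 7.63, 7.96, 7.97, 8.39 and 8.03 on the deficient and 10.46, 10.45, 9.47, 9.68 and 9.68 on the enriched diet. DBA/2 levels were 8.23, 7.98, 8.25, 7.90 and 8.33 on the deficient and 8.01, 7.75, 7.99, 7.99 and 7.86 on the enriched diet. Only the enriched C57BL/6 mice stood apart, and the other 3 groups overlapped. The difference was -2.17 (SE 0.252, adjusted p = 0.000533), and the other Id4 probe gave -2.48 (adjusted p = 0.000115). Within scan days 2 and 3 it was -2.45 and -2.38.

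Id3, a member of the same family, rose 7.60-fold in C57BL/6 (log2 2.93, SE 0.314), against 0.92 in DBA/2 (SE 0.296, adjusted p = 0.102). The spot of enriched C57BL/6 mouse 1 carried an outlier mark and was left out. The other 4 enriched C57BL/6 mice read 14.26, 13.59, 13.39 and 12.85, above the deficient ones at 10.59, 10.50, 10.63, 10.31 and 10.95. DBA/2 mice read 10.85, 10.84, 10.70, 9.94 and 9.93 on the deficient and 11.92, 11.36, 11.81, 11.44 and 10.34 on the enriched diet, and these groups overlapped. The difference of -2.0 (SE 0.432) passed narrowly (adjusted p = 0.0488). With any 1 of 15 of the 20 mice left out it no longer passed, with an adjusted p of up to 0.0927, and within scan days 2 and 3 it was -1.75 and -1.87. Of 20 alternative settings of the processing, 11 ended the Id3 call, slide or scan day as a fixed block among them.

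Id1 and Atoh8 rose in both strains, and their strain differences did not pass. Id1 rose by 3.81 in C57BL/6 and by 2.79 in DBA/2, a difference of -1.02 (SE 0.433, adjusted p = 0.369). Its enriched levels ran from 12.62 to 14.16 in C57BL/6 and from 10.42 to 11.84 in DBA/2, without overlap. Atoh8 rose by 2.91 and 1.81, a difference of -1.10 (SE 0.286, adjusted p = 0.0926), with enriched levels from 10.91 to 11.48 and from 9.49 to 10.56. For both genes the difference was close to that of Bmp6 in size, with a larger SE.

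Follistatin (Fst), a secreted inhibitor of activins that also binds BMPs, rose 2.42-fold in C57BL/6 (log2 1.27, SE 0.222, adjusted p = 0.00169), against -0.17 in DBA/2. The difference was -1.44 (SE 0.314, adjusted p = 0.0478). It did not pass with any 1 of 17 mice left out (adjusted p up to 0.0912), nor with 75th percentile scaling, cyclic loess or scan day as a block. Fst levels ran from 7.55 to 8.42 and from 8.76 to 9.44 in C57BL/6 mice on the deficient and enriched diet, and from 6.57 to 7.80 and 6.73 to 7.25 in DBA/2 mice.

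**Figure D2:**
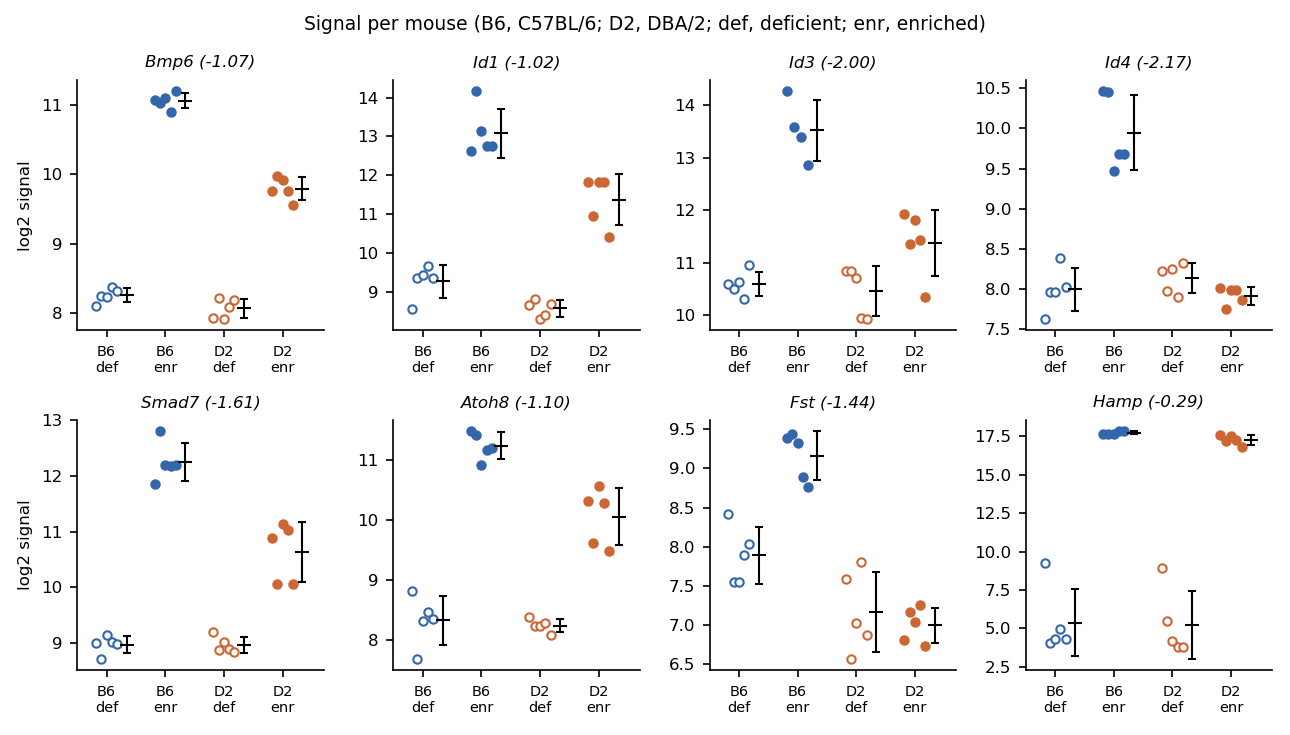
Log2 signal of 8 genes of the BMP and hepcidin axis in each mouse, with open symbols for the deficient and filled symbols for the enriched diet, and the mean ± SD beside them (4 mice for Id3 in enriched C57BL/6). The number after each name is the strain difference. Enriched C57BL/6 mice lie above enriched DBA/2 mice without overlap in all 8 panels, by a margin that is small for Hamp.

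Hamp rose by 12.33 (SE 0.929) in C57BL/6 and by 12.05 (SE 0.929) in DBA/2, and the difference of -0.29 (SE 1.31, adjusted p = 0.968) did not pass. The spread came from the deficient mice, which read 9.28, 4.02, 4.33, 4.98 and 4.29 in C57BL/6 and 8.95, 5.46, 4.20, 3.76 and 3.76 in DBA/2. Mouse 1 of each deficient group was far above the others. The arrays of these mice shared a slide that held no other deficient array. A part of the slide in these readings was not tested. In deficient DBA/2 the Hamp probe was above background on 3 of 5 arrays and 2 mice read the floor of 3.76, so the size of the DBA/2 rise depends on that floor. The enriched mice read 17.62 to 17.83 and 16.80 to 17.61. Leaving out 1 mouse at a time moved the Hamp difference between -1.28 and 0.62, so its sign was not settled. Hamp2, the near-identical paralog, rose by 8.78 and 9.90 (difference 1.12, SE 0.608, adjusted p = 0.544). For Hamp2 too, mouse 1 was the highest deficient mouse of each strain, at 8.13 in C57BL/6 and 10.16 in DBA/2. Cross-hybridisation between the Hamp and Hamp2 probes was not measured. Tfrc, the transferrin receptor, fell by 3.85 in C57BL/6 and by 4.09 in DBA/2, and its difference of -0.24 (SE 0.213, adjusted p = 0.799) did not pass.

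Strain differences in the rest of the pathway are to be read against all tested genes, of which 0.476% passed. An unadjusted p under 0.05 (limma) was found in 11% of all tested genes. Of 14 tested ligands and antagonists 1 passed, Fst, and the median difference was 0.06 against -0.02 over all genes. Of 13 receptors and iron sensors 0 passed and 2 had an unadjusted p under 0.05, with a median of 0.14. These were hemojuvelin (Hjv), the BMP co-receptor, at -0.45 (adjusted p = 0.132), and the protease Tmprss6, which cleaves it, at 0.41 (adjusted p = 0.202). Of 13 transducers and other targets 2 passed, Id3 and Id4, with a median of -0.05. At an unadjusted p under 0.05, 4 of them were lower and 1 higher, against 5.19% and 5.85% of all genes. The decoy receptor Bambi had 0.68 in C57BL/6 and -0.21 in DBA/2 (difference -0.88, adjusted p = 0.0518). Smad6, Smad9 and Id2 rose in both strains, by 0.90 and 0.66, 0.93 and 0.88, and 1.59 and 0.97, and their differences did not pass. Of 25 genes of iron uptake, storage and export 0 passed (limma) and 3 had an unadjusted p under 0.05, with a median of 0.02. The iron exporter Slc40a1 rose by 0.94 and 0.67, and the importer Slc11a2 fell by 1.19 and 0.99.

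Genes outside the pathway that rose in C57BL/6 with little change in DBA/2 included some of the largest strain differences. The desmosomal plakophilin Pkp1 read 5.56, 4.23, 5.57, 5.15 and 4.78 in deficient and 7.09, 7.65, 7.04, 6.51 and 7.90 in enriched C57BL/6 mice. The DBA/2 mice read 6.13, 6.29, 5.58, 6.34 and 5.4 on the deficient and 5.77, 5.41, 5.70, 5.67 and 5.88 on the enriched diet. The C57BL/6 diets did not overlap and the DBA/2 diets did. The Pkp1 difference was -2.44 (SE 0.388, adjusted p = 0.00641), and -1.13 with normexp background correction. The peptide hormone gene Sct, which encodes secretin, rose by 2.00 in C57BL/6 against 0.01 in DBA/2 (difference -1.99, SE 0.321, adjusted p = 0.00708). The transcription factor Gata3 rose by 1.95 against -0.02 (difference -1.97, SE 0.322, adjusted p = 0.00808). Gata3 was dim in DBA/2, above background on 2 of 5 deficient and 1 of 5 enriched arrays, so its DBA/2 change rests near the floor of 3.76. With normexp background correction the differences of Sct and Gata3 were -1.16 and -0.64, and that of Gata3 was -3.01 within scan day 2.

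Cpm and Plxdc1 rose in both strains and rose more in C57BL/6. The carboxypeptidase Cpm rose by 2.30 and 0.81 (difference -1.49, SE 0.232, adjusted p = 0.00551). Deficient Cpm levels were lower in C57BL/6 (6.96 to 7.54) than in DBA/2 (8.0 to 8.99), and the enriched ones overlapped (9.1 to 9.81 and 9.02 to 9.49). Plxdc1, a membrane receptor, followed the same order, with 6.08 to 6.55 and 8.04 to 8.09 on the deficient and 7.82 to 8.56 and 8.70 to 8.93 on the enriched diet (difference -1.09, SE 0.157, and -0.64 with normexp background correction). For these genes the strains lay closer together on the enriched diet. The phosphatase Ptp4a3 rose by 1.61 in C57BL/6 against 0.51 in DBA/2 (difference -1.09, adjusted p = 0.0214), and its change in DBA/2 alone did not pass (adjusted p = 0.0556). Its other probe gave -0.26 (adjusted p = 0.903), with 0.20 in C57BL/6, so the Ptp4a3 result rests on 1 probe, and the mean of its probes gave -0.68 and did not pass.

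Apoc3, an apolipoprotein that slows the clearance of triglyceride-rich particles, had tight groups. It read 16.25, 16.19, 16.18, 16.23 and 16.05 in deficient and 16.97, 17.08, 17.05, 17.02 and 17.07 in enriched C57BL/6 mice. DBA/2 levels were 16.21, 16.12, 16.10, 16.20 and 16.14 on the deficient and 16.52, 16.50, 16.47, 16.56 and 16.49 on the enriched diet. The deficient groups overlapped and the 2 enriched groups did not. The difference was -0.51 (SE 0.0715, adjusted p = 0.00298), and Apoc3 was the 1 gene of 13 tested apolipoprotein genes that passed. Asrgl1, an asparaginase, rose by 1.29 and 0.44 (difference -0.86, SE 0.123, adjusted p = 0.00298).

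The aldo-keto reductases Akr1b8 and Akr1b3 are neighbours on chromosome 6 with 0 genes between them. Akr1b8 rose by 1.90 and 0.90 (difference -0.99, adjusted p = 0.0327) and Akr1b3 by 1.24 and 0.44 (difference -0.80, adjusted p = 0.0109). Akr1b8 lost the call with any 1 of 11 mice left out, and cross-hybridisation between the similar transcripts was not measured. Akr1b8 was the 1 gene of 24 tested targets of NRF2, a transcription factor of the oxidative stress response, that passed, and the list's median difference was -0.05. Akr1b3 was named after its values were seen.

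Falls in DBA/2 with no passing change in C57BL/6 were led by Slco1a4 and Bex2. Slco1a4, an uptake transporter for bile salts and other organic anions, read 11.79, 12.66, 11.39, 11.57 and 11.60 in deficient and 10.53, 10.50, 10.22 and 10.84 in 4 enriched DBA/2 mice and lower still in the other. In C57BL/6 it read 13.71, 13.25, 13.57, 13.06 and 12.96 on the deficient and 13.76, 13.66, 13.68, 14.01 and 13.81 on the enriched diet. The C57BL/6 groups overlapped and lay above all DBA/2 mice. The fall in DBA/2 was 2.61-fold (log2 -1.39, SE 0.209, adjusted p = 0.0013) and the difference -1.86 (SE 0.295, adjusted p = 0.00641). Bex2, a small protein gene best known from the nervous system, fell by 1.38 in DBA/2 against a change of 0.13 in C57BL/6 (difference -1.51, SE 0.198, adjusted p = 0.00154). Deficient DBA/2 mice read 5.34, 5.50, 5.49, 5.38 and 5.56, above the other 3 groups, which ran from 3.76 to 4.43. Bex2 was above background on 5 of 5 arrays of deficient DBA/2, but on 2, 4 and 2 of 5 in the deficient C57BL/6, enriched C57BL/6 and enriched DBA/2 groups, and its difference was -0.41 with normexp background correction and -0.98 within scan day 2.

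In 7 genes the diet effect passed in both strains with opposite signs, and in 6 of them the level fell in C57BL/6 and rose in DBA/2. The remaining gene is known only by a clone name and rose in C57BL/6 and fell in DBA/2. Cyp2c23, a cytochrome P450 that makes epoxides of arachidonic acid, fell 2.12-fold in C57BL/6 (log2 -1.08, SE 0.171, adjusted p = 0.00073) and rose 1.75-fold in DBA/2 (log2 0.81, SE 0.171, adjusted p = 0.0131). It read 15.12, 15.56, 14.92, 15.13 and 15.50 in deficient and 14.52, 14.29, 14.08, 14.28 and 13.65 in enriched C57BL/6 mice. In DBA/2 it read 11.07, 10.45, 10.66, 11.00 and 11.24 on the deficient and 11.52, 11.73, 11.87, 11.50 and 11.85 on the enriched diet. The diets did not overlap in either strain, and the gap between the strains was -4.36 on the deficient and -2.47 on the enriched diet. The strain difference of Cyp2c23 was 1.89 (SE 0.242, adjusted p = 0.00141), and 1.65 and 1.96 within scan days 2 and 3.

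Srd5a1, a steroid reductase that acts on testosterone, fell by 0.71 in C57BL/6 and rose by 0.85 in DBA/2 (difference 1.56, SE 0.282, adjusted p = 0.0181). The other Srd5a1 probe gave a difference of 1.30 and did not pass (limma, adjusted p = 0.0639). By the first probe, Srd5a1 levels were as follows. It read 13.06, 13.05, 12.10, 13.10 and 13.28 in deficient and 12.59, 12.36, 12.17, 12.19 and 11.74 in enriched C57BL/6 mice, overlapping through deficient mouse 3. DBA/2 levels were 13.12, 12.76, 13.43, 13.33 and 13.19 on the deficient and 13.78, 13.75, 14.13, 14.17 and 14.24 on the enriched diet, without overlap. The deficient strains overlapped and the enriched ones were 1.80 apart. Folr2, a folate receptor of macrophages, fell by 0.46 in C57BL/6, from 10.95 to 11.27 down to 10.45 to 10.91. It rose by 0.82 in DBA/2, from 5.44 to 5.85 up to 6.12 to 6.94. The Folr2 difference was 1.28 (SE 0.185, adjusted p = 0.00298), at a gap of -5.42 on the deficient and -4.14 on the enriched diet, and it was 0.84 with normexp background correction. Of 11 Kupffer cell and macrophage markers 0 passed in the strain difference or in either strain (limma). The strain difference had 0 at an unadjusted p under 0.05 and a median of 0.12, against -0.02 over all genes. All 11 had the higher fitted change in DBA/2, by 0.02 to 0.27.

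The phospholipid scramblase genes Plscr2 and Plscr1 are neighbours on chromosome 9 with 0 genes between them. Plscr2 read 11.95, 11.91, 11.72, 12.01 and 12.07 in deficient and 11.14, 11.23, 10.96, 11.14 and 10.92 in enriched C57BL/6 mice. The DBA/2 mice read 11.13, 11.31, 11.14, 11.24 and 11.33 on the deficient and 11.43, 11.56, 11.42, 11.63 and 11.71 on the enriched diet. The diets did not overlap in either strain, and the order of the strains was turned between the diets. The Plscr2 difference was 1.17 (SE 0.117, adjusted p = 0.000154), the smallest adjusted p among the genes named, and its other probe gave 1.04 (adjusted p = 0.000256). Plscr1 fell by 0.76 in C57BL/6 against a change of 0.21 in DBA/2 (difference 0.97, SE 0.125, adjusted p = 0.00141), and its 2 other probes gave 1.06 and 1.11. Plscr1 and Plscr2 are similar in sequence, and cross-hybridisation was not measured. Cyp4v3, a fatty acid hydroxylase, had -0.40 and 0.43 (difference 0.83, adjusted p = 0.0159), and Lima1, an actin-binding protein, -0.37 and 0.39 (difference 0.76, adjusted p = 0.00708). The other Lima1 probe gave 0.82 and did not pass (limma, adjusted p = 0.0716).

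**Figure D3:**
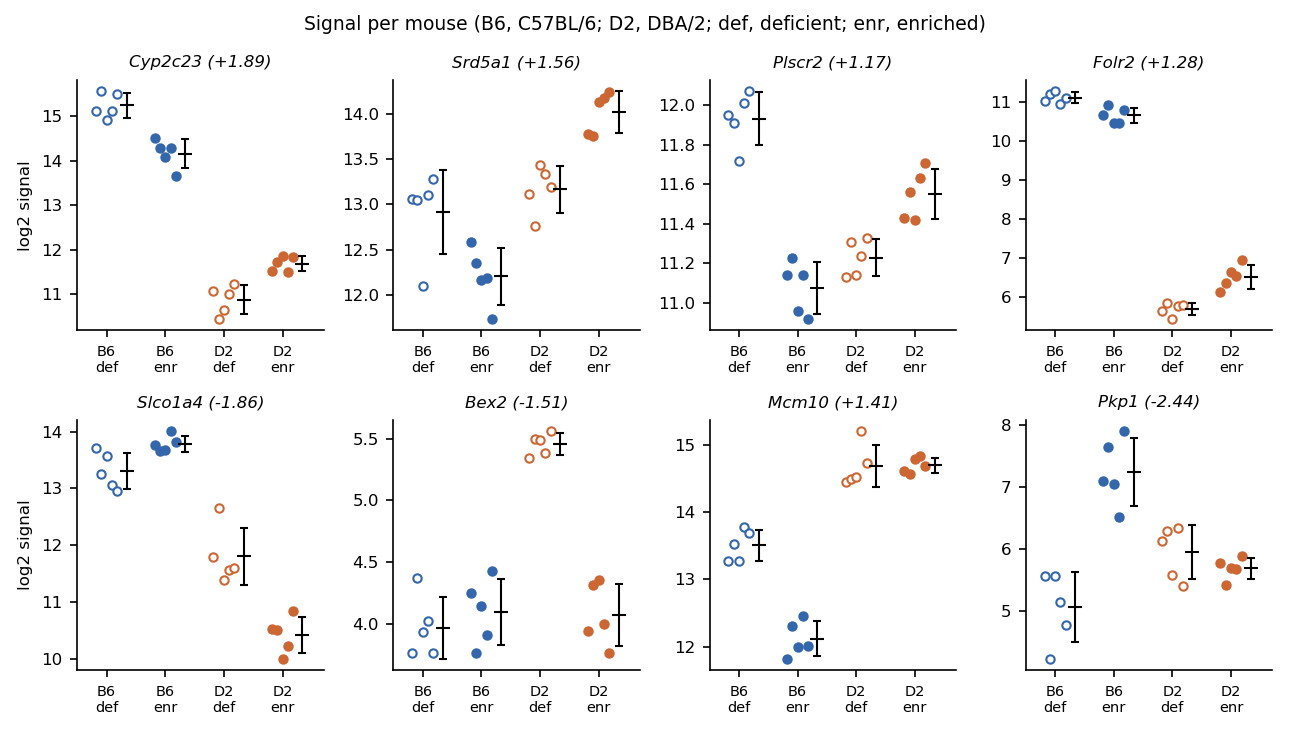
Log2 signal of 8 genes outside the BMP axis in each mouse, with open symbols for the deficient and filled symbols for the enriched diet, the mean ± SD beside them and the strain difference after each name. Cyp2c23, Srd5a1, Plscr2 and Folr2 fell in C57BL/6 and rose in DBA/2, Slco1a4 and Bex2 fell in DBA/2, Mcm10 fell and Pkp1 rose in C57BL/6.

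Falls in C57BL/6 with no passing change in DBA/2 made up 28 of the 99 genes. Mcm10, a factor that starts DNA replication, read 13.27, 13.52, 13.27, 13.77 and 13.68 in deficient and 11.82, 12.31, 11.99, 12.45 and 12.01 in enriched C57BL/6 mice. DBA/2 levels were 14.44, 14.49, 14.52, 15.20 and 14.73 on the deficient and 14.61, 14.57, 14.79, 14.83 and 14.68 on the enriched diet. It fell 2.61-fold in C57BL/6 without overlap, and the DBA/2 diets overlapped (difference 1.41, SE 0.208, adjusted p = 0.00343). Gpc1, a heparan sulfate proteoglycan, fell by 1.23 against a change of 0.46 in DBA/2 (difference 1.69, SE 0.246, adjusted p = 0.003). On the deficient diet Gpc1 was the higher in C57BL/6 and on the enriched diet the higher in DBA/2, without overlap on either.

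Among the genes that passed with a higher change in DBA/2, the largest difference was that of Akr1c18, a reductase that inactivates progesterone. Akr1c18 fell by 1.82 in C57BL/6 against a change of 0.57 in DBA/2 (difference 2.39, SE 0.491, adjusted p = 0.0364). It was above background on 3 of 5 deficient DBA/2 arrays and 5 of 5 in the other groups. Its call was lost with any 1 of 14 mice left out, and with normexp background correction the difference was 1.22. The complement gene C9 fell by 1.19 against a change of 0.42 (difference 1.61, adjusted p = 0.0356), and the transglutaminase Tgm1 by 1.25 against a change of 0.11 (difference 1.36, adjusted p = 0.0311). C9 lost the call with any 1 of 13 mice left out and Tgm1 with any 1 of 10. Cyp1a2, a cytochrome P450 of drug and caffeine metabolism, fell by 0.83 against a change of 0.21 (difference 1.04, adjusted p = 0.0275), and was the 1 of 23 tested xenobiotic metabolism genes that passed. It lost the call with any 1 of 9 mice left out, and its difference was 0.56 within scan day 2. The glycosyltransferase genes Ugt3a1 and Ugt3a2, neighbours on chromosome 15 and named after their values were seen, fell by 0.81 and 0.51 in C57BL/6, with differences of 0.72 and 0.43. Ugt3a1 lost the call with any 1 of 8 mice left out, and its difference was 0.41 within scan day 2.

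Rises in DBA/2 with no passing change in C57BL/6 made up 16 genes. Wdr66, a gene of cilia and flagella, read 5.87, 5.29, 6.26, 5.44 and 6.04 in deficient and 7.84, 7.72, 7.63, 7.22 and 7.05 in enriched DBA/2 mice. In C57BL/6 it read 5.67, 6.03, 5.74, 5.75 and 5.52 on the deficient and 6.12, 5.56, 6.14, 5.99 and 6.15 on the enriched diet. Only the enriched DBA/2 mice stood apart, with a rise of 3.27-fold (log2 1.71, SE 0.186) and a difference of 1.46 (SE 0.263, adjusted p = 0.0173). The difference was 0.81 with normexp background correction, and it did not pass with 75th percentile scaling.

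Alas2, the erythroid enzyme that starts heme synthesis, rose by 0.75 in DBA/2 against -0.55 in C57BL/6 (difference 1.30, SE 0.254, adjusted p = 0.0275). It read 12.71, 12.45, 12.85, 13.27 and 12.80 in deficient and 13.51, 13.65, 13.68, 13.58 and 13.40 in enriched DBA/2 mice, without overlap. C57BL/6 mice read 11.71, 11.83, 10.96, 11.83 and 12.09 on the deficient and 11.47, 11.32, 10.88, 11.09 and 10.91 on the enriched diet, with overlap. Alas2 lost the call with any 1 of 9 mice left out. Of the 4 other erythroid markers tested 0 passed (limma; 0 also at an unadjusted p under 0.05), with differences of -0.04 for Hba-a1, 0.19 for Hbb-bt, -0.05 for Slc4a1 and -0.32 for Klf1. Of 9 heme synthesis genes Alas2 alone passed. Alas1, its counterpart in other tissues, fell by 1.13 in C57BL/6 against a change of -0.08 in DBA/2 (difference 1.05, adjusted p = 0.265).

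The carboxylesterase Ces2b rose by 1.12 in DBA/2 against -0.86 in C57BL/6 (difference 1.98, SE 0.404, adjusted p = 0.0351), and its other probe gave 1.12 (adjusted p = 0.0243). It lost the call with any 1 of 12 mice left out, and its difference was 1.06 within scan day 2. The membrane protein gene Fam171b rose by 0.96 against -0.45 (difference 1.41, SE 0.257, adjusted p = 0.0181), and the difference was 0.77 with normexp background correction and 0.90 within scan day 3. The zinc importer Slc39a4 rose by 0.55 against -0.21 (difference 0.75, adjusted p = 0.0393), lost with any 1 of 14 mice left out. Cml3 rose by 1.23 against -0.40 (difference 1.62, adjusted p = 0.0299), was above background on 2 to 3 of 5 arrays outside the enriched DBA/2 group, and did not pass under any other scaling or with normexp background correction, which gave 0.37.

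Of 25 tested genes of cholesterol synthesis and its control, 0 passed in C57BL/6 and 16 fell in DBA/2. The median change was -0.28 in C57BL/6 and -1.41 in DBA/2, and the median strain difference was -1.11, against -0.02 over all genes. No gene of the list passed for the difference itself, by limma; 13 were lower at an unadjusted p under 0.05 and 0 higher, against 5.19% and 5.85% of all genes. Hmgcs1, the synthase ahead of the rate-limiting step, read 8.70, 9.91, 9.97, 9.34 and 10.60 in deficient and 8.48, 9.05, 8.14, 8.54 and 10.01 in enriched C57BL/6 mice. In DBA/2 it read 11.49, 11.76, 10.90, 11.01 and 11.18 on the deficient and 8.89, 8.11, 8.37, 7.77 and 9.75 on the enriched diet. The deficient DBA/2 mice were higher than all others, and the enriched strains overlapped (difference -1.83, SE 0.56, adjusted p = 0.158). Pmvk, the phosphomevalonate kinase of the pathway, had -1.18 in DBA/2, where it fell, and 0.01 in C57BL/6 (difference -1.19, adjusted p = 0.062). The list median ran from -1.34 to -0.90 with 1 mouse left out, and was -1.23 and -1.24 within scan days 2 and 3.

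Of 26 tested genes of the cell cycle and replication, 25 had the higher change in DBA/2 and 0 passed (limma), while 15 were higher and 0 lower at an unadjusted p under 0.05, against 5.85% and 5.19% of all genes. The median change was -0.21 in C57BL/6, where 1 rose (3.15% of all genes did), and 0.56 in DBA/2, where 3 rose (2.13% of all genes). The median difference was 0.54 and ran from 0.44 to 0.65 with 1 mouse left out. Cdc20, an activator of the anaphase-promoting complex, rose by 0.87 in DBA/2 against -0.36 (difference 1.23, adjusted p = 0.0863), and the replicative helicase subunit Mcm6 by 0.81 against -0.17 (difference 0.98, adjusted p = 0.117). Mcm10, described above, is not in this list. The median level of the list ran from 7.19 to 8.76 over the arrays, below every Mcm10 level given above. What the Mcm10 probe measures was not tested.

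Of 15 tested genes known to be higher in male than in female mouse liver, 6 fell in C57BL/6, while 2 rose and 1 fell in DBA/2. Over all genes 2.86% fell in C57BL/6, and 2.13% rose and 1.5% fell in DBA/2. Their median difference was 0.72, with 9 higher and 0 lower at an unadjusted p under 0.05, against 5.85% and 5.19% of all genes. Nudt7, a peroxisomal hydrolase of coenzyme A, was the 1 that passed, falling by 0.84 in C57BL/6 against a change of 0.23 in DBA/2 (difference 1.07, SE 0.207, adjusted p = 0.0273). Its call was lost with any 1 of 4 mice left out, and its other probe gave 0.93 (adjusted p = 0.145). The steroid dehydrogenase Hsd3b5, named after its values were seen, read 6.65, 9.78, 4.49, 7.62 and 8.28 in deficient C57BL/6 mice and 3.76 to 3.82 in enriched ones. DBA/2 levels were 10.27, 8.13, 11.83, 12.50 and 10.20 on the deficient and 12.32, 11.75, 12.37, 12.71 and 10.60 on the enriched diet. Its difference of 4.95 (SE 1.14) did not pass (adjusted p = 0.0578), and 2 of 5 enriched C57BL/6 arrays were above background. The transporter Slco1a1, also named after its values were seen, fell by 2.55 in C57BL/6 against a change of 0.22 (difference 2.77, adjusted p = 0.0534), while its other probe gave 2.78 and passed (adjusted p = 0.0369).

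Of 17 tested female-biased genes 0 passed (limma), and the median difference was -0.71. At an unadjusted p under 0.05, 3 were lower and 2 higher, against 5.19% and 5.85% of all genes. Cyp3a16, a steroid-metabolising cytochrome P450, rose by 1.03 in C57BL/6 against -0.01 in DBA/2 (difference -1.04, adjusted p = 0.251). Of 12 genes of growth hormone signalling, which is known to set sex-biased liver expression, 0 passed. Of these 12, 2 were higher at an unadjusted p under 0.05, against 5.85% of all genes. The 2 were Igfals (-0.73 and 0.34, difference 1.07, adjusted p = 0.0582) and the receptor Ghr (-0.48 and 0.13, difference 0.62, adjusted p = 0.077). The sex of the mice is not given in the sources used here.

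Markers of the zones of the liver lobule were counted in each strain. Of 7 pericentral markers 6 fell in C57BL/6 (2.86% of all genes did) and 2 in DBA/2 (1.5% of all genes), with a median difference of 0.28. For the difference 0 passed (limma). At an unadjusted p under 0.05, 4 were higher and 1 lower, against 5.85% and 5.19% of all genes. The ammonium transporter Rhbg fell by 1.29 in C57BL/6 against a change of -0.21 in DBA/2 (difference 1.08, adjusted p = 0.0557), and the glutamate transporter Slc1a2 by 0.86 against a change of 0.02 (difference 0.87, adjusted p = 0.0624). The other Slc1a2 probes gave 0.69 and 0.06. Of 7 periportal markers 5 rose in C57BL/6 (3.15% of all genes did) and 1 in DBA/2 (2.13% of all genes), with a median difference of -0.24. For the difference 3 were lower and 0 higher at an unadjusted p under 0.05, against 5.19% and 5.85% of all genes. Hsd17b13, a lipid droplet enzyme, rose by 0.90 in C57BL/6, from 14.50 to 14.83 up to 15.46 to 15.78, against 0.25 in DBA/2 (difference -0.65, SE 0.109, adjusted p = 0.00924). Its other probe gave -0.60 (adjusted p = 0.349). Counts of passing genes in each strain are not a test of the difference between the strains.

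**Figure D4:**
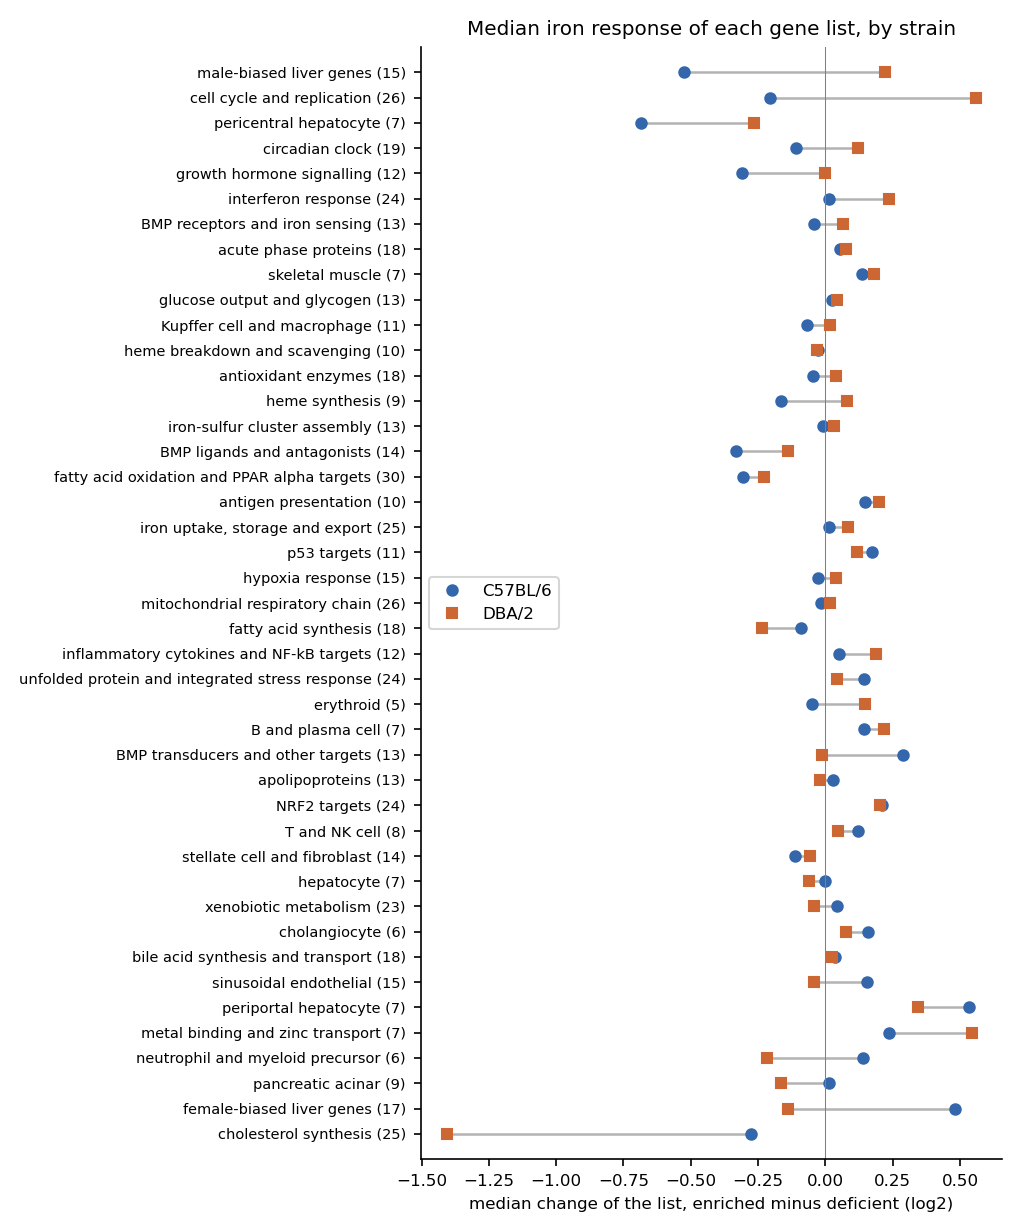
Median change from the deficient to the enriched diet in C57BL/6 (circles) and DBA/2 (squares), in log2, for each gene list with 5 or more tested genes (number in brackets), ordered by the median strain difference. Cholesterol synthesis stands lowest, with -0.28 and -1.41, and male-biased genes highest, with -0.53 and 0.22.

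**Figure D5:**
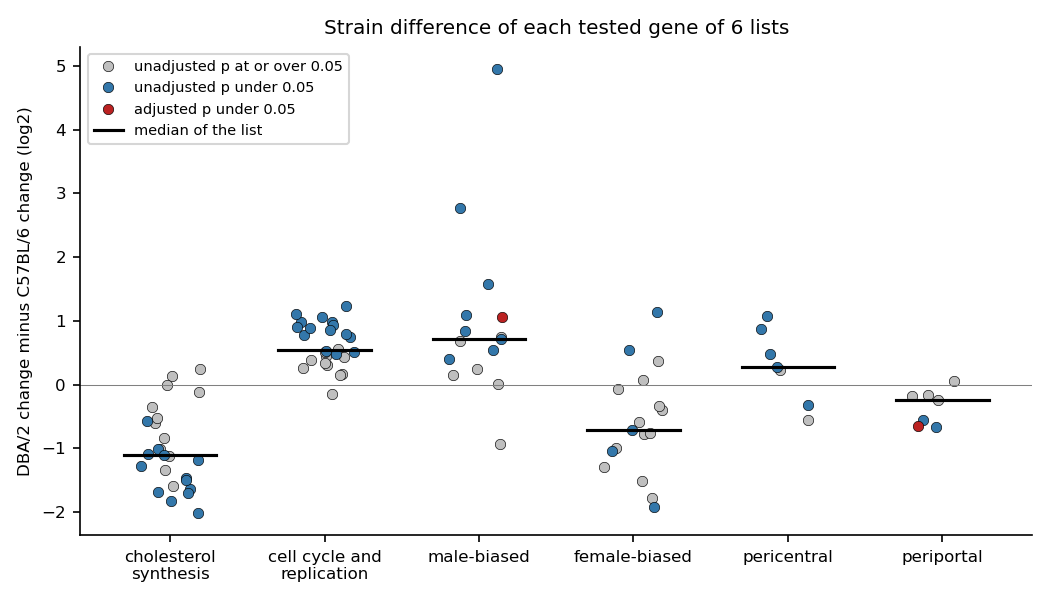
Strain difference (DBA/2 change minus C57BL/6 change, log2) of each tested gene of 6 lists, coloured by its p-value, with the median of the list as a bar. Most cholesterol synthesis genes lie below 0 and 25 of 26 cell cycle genes above 0, and 2 genes pass after adjustment over all genes, Nudt7 and Hsd17b13.

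Markers of other cell types gave few strain differences. Of 6 tested cholangiocyte markers Krt19 passed, rising by 0.82 in C57BL/6 against 0.06 in DBA/2 (difference -0.75, adjusted p = 0.0381), and it lost the call with any 1 of 16 mice left out. Of 15 sinusoidal endothelial markers, the cells known as a source of Bmp6, 0 passed (limma), and the median was -0.12. At an unadjusted p under 0.05, 3 of the 15 were lower, against 5.19% of all genes. The scavenger receptor Stab1 rose by 0.66 in C57BL/6 against 0.15 in DBA/2 (difference -0.51, adjusted p = 0.166). The lists of stellate cells, neutrophils, T and NK cells, B and plasma cells, pancreatic acinar cells, skeletal muscle and adipocytes held 0 passing genes, with medians between -0.40 and 0.12. Among them 1 gene, a stellate marker, had an unadjusted p under 0.05, against 11% of all genes. The part of these cell types in the results above was not tested.

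All 44 named genes that passed kept the sign of the difference within scan day 2, within scan day 3, under a block for slide or for scan day, and with any 1 mouse left out. Of these, 14 genes had 15 other probes, which all had the same sign, and 9 of the probes passed. With slide as a fixed block 11 of them passed: Asrgl1, Bex2, Bmp6, Cpm, Cyp4v3, Id4, Plscr1, Plscr2, Slco1a4, Ugt3a1 and Wdr66. With scan day as a block 42 passed, Id3 and Fst being lost. Within days 2 and 3 alone 0 genes passed (limma), against 1320 and 1290 at an unadjusted p under 0.05. The 99 calls became 39 without deficient DBA/2 mouse 1, 42 without enriched DBA/2 mouse 3, 46 without mouse 4, 48 without mouse 2 and 61 without mouse 5 of that group. They became 47 without deficient C57BL/6 mouse 5, 62 and 65 without enriched C57BL/6 mice 5 and 4, and 65 without deficient DBA/2 mouse 2. Of the 44 named genes 29 passed in every fit with 1 mouse left out in which they were tested, and Gata3 was tested in 17 of the 20.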

How the data were processed

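Liver RNA of 30 mice had been hybridised, 1 mouse per array, to Agilent 1-colour whole-genome arrays, and 20 arrays entered the fit. The deposited values are intensities: per the file headers, the processed signal of each spot came from Agilent Feature Extraction 9.1.3.1 (the labels name 9.5.1), after background subtraction by that software. Per the series text, the authors normalized by quantiles and tested with another R package, which was not run here.

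From the deposited intensities, 43379 gene spots were averaged into 41174 probes, leaving out 1639 control spots and spots with outlier marks, so Id3 lacks enriched C57BL/6 mouse 1 and Fasn enriched DBA/2 mouse 5. The 20 arrays were quantile normalized, floored at 13.6 and taken to log2. Probes well above background (signal over 5 additive errors) on at least 3 arrays of each strain, with at least 3 values in each group, were kept (29598), and the brightest probe of a gene was used. Names came from RefSeq by accession for 22951 probes and by symbol for 6659, and 11564 kept the name in the file. The series value table and the array files differed by 0 at most. limma 3.58.1 in R 4.3.3 fitted the 4 group means over 20797 genes, with two-sided moderated tests and Benjamini-Hochberg adjustment, and Python 3.11.15 made the summaries. "Passed" means an adjusted p under 0.05. On simulated data of 20797 genes for the strain difference, 28%, 52%, 92% and 100% of 50 genes each were recovered at log2 differences of 0.5, 1, 2 and 4, with 7 false calls among 143. The simulation used independent noise with no slide or scan day effect and placed the changes in enriched DBA/2 alone. These rates need not hold for the real arrays.

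The contrast, the gene lists and the rule for named genes were chosen with earlier results of these data known. The rule took the title genes, Hamp, Hamp2 and Tfrc. It also took the 12 largest named differences and the 5 smallest adjusted p-values in each direction. Genes with opposite responses and the passing members of each list were added. Where no member passed, the leading 2 were named only for lists chosen to be described, and other such lists gave no gene. Strain differences in sequence at probe sites were not examined.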

Additional observations from a re-analysis of the deposited data

Results flagged for a closer look

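Single mice stood apart from their group in 13 of 316 groups checked (5 mice each, or 4 for Id3 in enriched C57BL/6 and Fasn in enriched DBA/2) by the gap to the nearest mouse over the range, where chance gives about 1 in 20. In deficient C57BL/6 the lowest mouse read 8.56 for Id1 and 12.1 for Srd5a1, and the highest read 9.28 for Hamp. In enriched C57BL/6 the lowest mouse read 5.56 for Wdr66, and the highest read 9.49 for Rhbg and 3.82 for Hsd3b5. In deficient DBA/2 the lowest mouse read 9.19 for Ptp4a3 and 13.99 for Slc39a4, and the highest read 15.69 for Cp and 7.1 for Krt19. In enriched DBA/2 the highest mouse read 12.05 for Igfals, 13.62 for Pmvk and 9.77 for Pklr.

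The 44 named genes below had a change with diet that differed between the strains by the interaction test itself (limma, adjusted p under 0.05), given as the DBA/2 change minus the C57BL/6 change in log2. In the BMP axis the differences were -1.07 for Bmp6, -1.61 for Smad7, -2.17 for Id4, -2.0 for Id3 and -1.44 for Fst. Other genes with a lower change in DBA/2 gave -2.44 for Pkp1, -1.99 for Sct, -1.97 for Gata3, -1.86 for Slco1a4, -1.51 for Bex2, -1.49 for Cpm, and -1.09 for both Plxdc1 and Ptp4a3. Smaller ones were -0.99 for Akr1b8, -0.86 for Asrgl1, -0.8 for Akr1b3, -0.75 for Krt19, -0.65 for Hsd17b13 and -0.51 for Apoc3, and, among ribosomal protein genes, -0.58 for Rpsa, -0.57 for Rpl3 and -0.53 for Rpl12.

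Differences with a higher change in DBA/2 were 2.39 for Akr1c18, 1.98 for Ces2b, 1.89 for Cyp2c23, 1.69 for Gpc1, 1.62 for Cml3, 1.61 for C9, 1.56 for Srd5a1, 1.46 for Wdr66, 1.41 for both Fam171b and Mcm10, 1.36 for Tgm1 and 1.3 for Alas2. Further values were 1.28 for Folr2, 1.17 for Plscr2, 1.07 for Nudt7, 1.04 for Cyp1a2, 0.97 for Plscr1, 0.83 for Cyp4v3, 0.76 for Lima1, 0.75 for Slc39a4, 0.72 for Ugt3a1 and 0.43 for Ugt3a2. Ugt3a1, Ugt3a2, Akr1b3 and the ribosomal protein genes were named after their values were seen.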

How the results depend on the processing

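The 99 strain differences became 36 without normalization between arrays, 151 with normexp background correction, 13 with slide as a fixed block, 280 with slide as a random block, 192 with scan day as a block, 215 with a trended and robust prior, and 0 in the arrays of day 2 alone or day 3 alone, where limma gave 1320 and 1290 genes at an unadjusted p under 0.05. Under the other 12 alternatives the count lay within 1.5 times of 99. With 1 mouse left out it ran from 39 to 144. The 1250 genes of the C57BL/6 response became 586 without normalization, 532 with slide as a fixed block, 21 and 140 in day 2 or day 3 alone, and 813 to 1377 with 1 mouse left out. The 755 of DBA/2 became 124, 2 and 20 with slide as a fixed block and in those days, and 418 to 769 with 1 mouse left out. The Hamp difference of -0.29 turned to 0.29 and 0.013 with slide as a fixed and random block, 0.15 with scan day as a block and 0.66 within scan day 2, and ran from -1.28 to 0.62 with 1 mouse left out. Within scan day 2 the differences of Cp, Slc25a37 and Psmb8 also turned, to 0.011, -0.10 and -0.13. All 44 named genes that passed kept their sign under each alternative that gave them a value. No normalization ended 24 of these calls, and slide as a fixed block left 11. Within-day fits and left-out mice hold fewer samples; the cause of the other shifts was not tested. No paired analysis was possible because the mouse numbers are in accession order and pair nothing. Gata3, Bex2 and Cml3 were not above background on some arrays, which limits what their changes can show.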

Other observations

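Genes of cytosolic ribosomal proteins were listed after their values were seen, so they are given as a description. Of 79 tested, 78 had the lower change in DBA/2, with a median difference of -0.23 against -0.02 over all genes. In C57BL/6 13 rose and 0 fell, and in DBA/2 0 rose and 2 fell. For the strain difference 3 passed, Rpl3, Rpsa and Rpl12, and 52 were lower at an unadjusted p under 0.05 (limma), against 5.19% of all genes. Rpsa lost the call with any 1 of 16 mice left out, with an adjusted p of up to 0.0953. Rpl3, a protein of the large subunit, had 0.19 in C57BL/6 and fell by 0.38 in DBA/2 (difference -0.57, SE 0.0823, adjusted p = 0.00298). The median ran from -0.25 to -0.20 with 1 mouse left out.

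Of 19 circadian clock genes 0 passed for the strain difference (limma), while 3 were higher and 4 lower at an unadjusted p under 0.05, against 5.85% and 5.19% of all genes. The 2 members with the smallest p also differed in level between the strains, and this was not counted over the list. Dbp, a clock output gene, was 4.04 higher in DBA/2 on the deficient and 4.96 higher on the enriched diet. Arntl, a core clock activator, differed by -2.25 on the deficient and by -3.36 on the enriched diet (DBA/2 minus C57BL/6).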
